A study of Mus musculus with 10 samples.

Results

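A set of 10 midline guidance genes, out of the 55367 genes listed, was read in each of 10 inspiratory neurons of the preBötzinger complex (preBötC), the brainstem site that generates the rhythm of inspiration. They were taken as a named set: the Roundabout receptors Robo1, Robo2 and Robo3, the Slit ligands Slit1, Slit2 and Slit3, the netrin ligand Ntn1, and the netrin receptors Dcc, Neo1 and Unc5c. All 10 were found by symbol in the count and FPKM files, and the set was chosen with earlier results of these data known. Each sample is the cytoplasm of 1 neuron drawn into a patch pipette, made into full-length cDNA and sequenced as 1 library.

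Samples 1, 5, 6 and 7 come from Dbx1;Ai148 mice, the offspring of Dbx1Cre mice, in which the Dbx1 promoter drives Cre, and Ai148 mice, which make the fluorescent calcium indicator GCaMP6f after Cre recombination. These mice had a C57Bl/6J background, or that background mixed with CD1. Samples 2, 3, 4, 8, 9 and 10 come from CD-1 wild-type mice, carry no reporter and were picked for activity in phase with hypoglossal motor output, so their lineage is not marked. Line follows the sample labels here, which match the numbers of neurons per line and type in the publication's text. Some legends in the publication order the lines otherwise, with samples 1 to 6 as CD-1 and samples 7 to 10 as Dbx1;Ai148, and under that order every line comparison would change. The Dbx1;Ai148 neurons are 3 Type-1 neurons (sample 5 at P0, samples 6 and 7 at P3) and 1 Type-2 neuron (sample 1 at P0), where the types are defined by the electrical phenotype. The CD-1 neurons are 1 Type-1 neuron (sample 4 at P3) and 5 Unknown neurons (samples 3 and 8 at P0, sample 10 at P1, samples 2 and 9 at P2). Mouse line, strain background, reporter selection and type therefore cannot be told apart in these neurons. No animal is named in the labels and only 1 neuron is Type-2, so lines and types are compared as descriptions, without p-values. Mean ± SD is the spread over neurons.

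Slit proteins are secreted at the midline and repel growing axons that carry Robo receptors, while netrin-1 attracts axons through Dcc and can repel them through Unc5 receptors. Robo3 is a divergent receptor without which hindbrain commissural axons fail to cross, and Neo1 (neogenin) is a relative of Dcc that binds netrins and repulsive guidance molecules. The left and right preBötC are joined by commissural axons of Dbx1-derived neurons, and loss of Robo3 in these neurons uncouples the left and right rhythms. Such axons cross before birth, and the neurons here were taken after it.

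The loci of 3 members are shown by sequence, because Robo2 and Neo1 were the members found in most neurons and Slit2 was the ligand with fragments in every neuron. The stretches lie just upstream of the start site, are read 5′ to 3′ on the gene's strand, and come from RefSeq on GRCm38.p6. Where RefSeq gives several start sites, the one nearest the GENCODE gene start was used. Robo2 has further RefSeq windows upstream, at chr16:75092721-75093020 and chr16:75447244-75447543, which are not shown. Capitals mark the GC box GGGCGG on either strand and the TATA box TATAAA. Robo2 is at chr16:74411826-74412075 (minus strand), Neo1 at chr9:59036442-59036691 (minus strand) and Slit2 at chr5:47982905-47983137 (plus strand).
Robo2: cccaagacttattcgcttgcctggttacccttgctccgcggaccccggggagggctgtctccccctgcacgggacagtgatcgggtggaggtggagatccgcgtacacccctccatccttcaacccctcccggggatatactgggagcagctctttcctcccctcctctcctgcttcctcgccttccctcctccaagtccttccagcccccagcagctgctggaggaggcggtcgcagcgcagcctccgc
Neo1: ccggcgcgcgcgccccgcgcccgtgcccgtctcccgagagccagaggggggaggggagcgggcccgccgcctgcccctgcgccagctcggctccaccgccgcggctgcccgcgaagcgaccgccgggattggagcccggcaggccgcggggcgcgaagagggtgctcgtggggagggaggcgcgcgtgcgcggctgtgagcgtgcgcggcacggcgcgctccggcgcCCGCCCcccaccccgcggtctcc
Slit2: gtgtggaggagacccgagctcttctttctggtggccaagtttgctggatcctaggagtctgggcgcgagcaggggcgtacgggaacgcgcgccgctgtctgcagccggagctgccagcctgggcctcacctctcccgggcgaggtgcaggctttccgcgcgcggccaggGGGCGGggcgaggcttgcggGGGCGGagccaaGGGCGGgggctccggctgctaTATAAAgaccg
The Robo2 stretch held neither motif and 14 CpG dinucleotides in 250 bases. That of Neo1 held 1 GC box and 45 CpG, and that of Slit2 held 3 GC boxes, 1 TATA box and 23 CpG in 233 bases. Over 32851 RefSeq promoter windows of 300 bases, 35.7% held the GC box and 13.6% the TATA box on either strand, and the median number of CpG was 7. In all, 7 members matched 9 such windows, of which 4 held a GC box (those of Slit2, Robo3, Neo1 and Slit3) and 1 the TATA box. A match is a description of the letters and no measure of binding.

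The Slit genes also carry microRNAs. The hairpins of miR-218, a microRNA known to target Robo1 and Robo2, lie in an intron of Slit2 (Mir218-1, chr5:48223942-48224051, plus strand) and of Slit3 (Mir218-2, chr11:35616816-35616925, plus strand), on the strand of their hosts. Both give the same mature microRNA, shown with its seed (bases 2 to 8) in capitals.
mmu-miR-218-5p: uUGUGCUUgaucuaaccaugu
In the counts, Mir218-1 had 0 fragments in all 10 neurons. Mir218-2 had 5 fragments in sample 7 and 0 in the others, and sample 7 was the 1 neuron with Slit3 at 1 FPKM or more. The kit primes polyadenylated RNA, so these fragments are read as transcript over the hairpin and not as mature microRNA.

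FPKM is the fragment count divided by the gene's length in kilobases and scaled to 1e+06 fragments on genes. A gene is called detected at 1 FPKM or more. The libraries held between 21392146 and 36629393 fragments, so that a count of 0, which allows up to 3 fragments, stands for less than 0.00322 to 0.0237 FPKM, depending on gene and library. The reads carry no molecular identifiers, and such limits cover counting error only. Between 5055 and 9307 genes were detected per neuron, the fewest in samples 1, 2 and 3 (5065, 5623 and 5055).

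The cell type markers set some libraries apart. The 8 neuron markers summed to 58.4 FPKM in sample 4 and to between 761 and 4670 FPKM in the other 9 neurons, while the 8 microglia markers summed to 15398 FPKM in sample 4, with 8 of 8 detected. Sample 2 also had 8 of 8 microglia markers, at 2039 FPKM. Sample 9 had 5 of 6 cholinergic motoneuron markers at 1231 FPKM in all, against at most 24.7 FPKM elsewhere. Of the 10 astrocyte markers, 8, 8 and 10 were detected in samples 2, 3 and 8, and 3 to 6 in the others. The 6 ependymal and floor plate markers were under 1 FPKM in every neuron. Among them, Foxa2 and Shh would mark the floor plate, the midline cells that secrete Slits and netrin. Foxa2 was at 0 and Shh at most 0.0338 FPKM.

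Over the 10 genes and 10 neurons, 26 of 100 values were at 1 FPKM or more, 35 were above 0 and below that limit, and 39 were 0. By mean FPKM over the 10 neurons the order was Robo2, Neo1, Slit1, Ntn1, Slit2, Dcc, Robo1, Slit3, Unc5c and Robo3, from 6.17 ± 6.42 (SD, n = 10 neurons) to 0.0112 ± 0.0188. In every gene the SD exceeded the mean, so no pair of neighbours in this order was separated beyond its spread. Robo2 was detected in 7 neurons, Neo1 in 6, Robo1 and Dcc in 3 each, Slit1, Slit2 and Ntn1 in 2 each, and Slit3 in 1, while Robo3 and Unc5c were detected in none. Robo2 and Neo1, or 2 of the 10 members, were thus detected in at least 5 neurons, as were 35.5% of the 21231 genes with a fragment in any neuron.

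**Figure D1:**
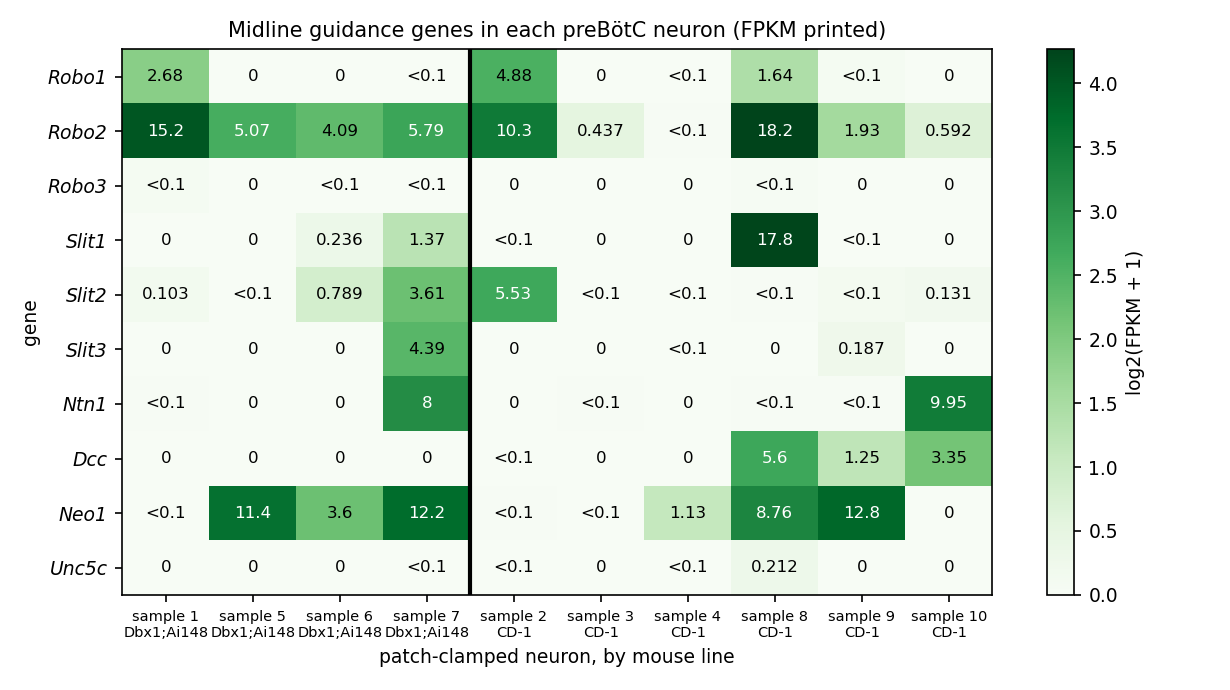
Heat map of the 10 midline guidance genes (rows) in the 10 neurons (columns, Dbx1;Ai148 left of the line and CD-1 right of it). Colour is log2(FPKM + 1) and the printed number is FPKM. Robo2 runs from 4.09 to 15.2 FPKM in the Dbx1;Ai148 neurons, and sample 7 is the 1 neuron with all 4 ligands.

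Robo2, a main receptor for Slits, was the most widely detected member. In the Dbx1;Ai148 neurons it was at 15.2, 5.07, 4.09 and 5.79 FPKM in samples 1, 5, 6 and 7. In the CD-1 neurons it was at 10.3, 0.437, 0.0140, 18.2, 1.93 and 0.592 FPKM in samples 2, 3, 4, 8, 9 and 10. All 4 Dbx1;Ai148 neurons were above 4 FPKM, and the CD-1 neurons lay on both sides of them, so the groups overlapped. The 3 Type-1 Dbx1;Ai148 neurons were close together, at 4.98 ± 0.856 FPKM (SD, n = 3 neurons). Among the genes with a fragment in a neuron, Robo2 stood at percentile 75.3 in sample 8, 73.5 in sample 1 and 44.9 in sample 6. The 231 and 307 fragments of samples 3 and 10 were well above the 4.02 and 2.48 expected there from reads of the other libraries, whereas the 7 fragments of sample 4 compared with 6.62 expected. Robo2 lies at chr16:73891839-74411825 on the minus strand.

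Robo1, another Slit receptor, lies on the same chromosome at chr16:72308306-73046095 on the plus strand, and it was found in few neurons. It was at 2.68 FPKM in sample 1, at 4.88 FPKM in sample 2 and at 1.64 FPKM in sample 8, on 948, 2920 and 720 fragments. In the other 7 neurons it had between 0 and 18 fragments. The Type-1 Dbx1;Ai148 neurons had 0, 0 and 2. The 3 neurons with Robo1 were also the 3 with the highest Robo2. Across the 10 neurons log2(FPKM + 1) of the pair had a Pearson r of 0.72 and a Spearman rho of 0.67, where both values of a point share a library and 3 neurons hold nearly all Robo1 fragments. The other pairs among Robo1, Robo2, Dcc and Neo1 had r between -0.37 and 0.23.

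Robo3, at chr9:37415669-37433246 on the minus strand, was at or near 0 everywhere. It had 7 fragments in sample 1, 8 in sample 8, 2 each in samples 6 and 7, and 0 in the other 6 neurons. That is 19 fragments in all (from 11.4 to 29.7 by the exact Poisson interval at 95%), or at most 0.0478 FPKM in a neuron. The 7 and 8 fragments of samples 1 and 8 exceeded the 0.00231 and 0.00129 expected from the other libraries. The receptor named for commissural crossing was thus not detected at 1 FPKM in any of these postnatal neurons at this depth.

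Among the netrin receptors, Neo1 (chr9:58874687-59036441, minus strand) was the most widely detected. The Dbx1;Ai148 neurons had 0.0107, 11.4, 3.60 and 12.2 FPKM in samples 1, 5, 6 and 7. The CD-1 neurons had 0.0158, 0.00737, 1.13, 8.76, 12.8 and 0 FPKM in samples 2, 3, 4, 8, 9 and 10. The values fell apart into neurons at 1.13 FPKM or more and neurons at 0.0158 FPKM or less, and both lines held both kinds. All 3 Type-1 Dbx1;Ai148 neurons were in the first, at 9.09 ± 4.78 FPKM (SD, n = 3 neurons), and the Type-2 neuron, sample 1, was in the second. The 2 fragments of sample 1 compared with 4.09 expected from the other libraries.

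Dcc, the receptor through which netrin attracts commissural axons, was detected in 3 of 6 CD-1 neurons and in 0 of 4 Dbx1;Ai148 neurons. It lies at chr18:71253634-72351069 on the minus strand. Samples 8, 9 and 10 had 5.60, 1.25 and 3.35 FPKM, on 1958, 363 and 1347 fragments. Sample 2 had 2 fragments and samples 3 and 4 had 0. The 4 Dbx1;Ai148 neurons had 0 fragments each, which allows up to 3 per library. The lines still overlapped, since samples 3 and 4 were also at 0. Sample 9 carries motoneuron markers, and without it Dcc was detected in samples 8 and 10.

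Unc5c (chr3:141465216-141834924, plus strand), a receptor of the repulsive netrin response, had 115 fragments over the 10 neurons, of which 108 were in sample 8, at 0.212 FPKM. Samples 2, 4 and 7 had 3, 2 and 2 fragments and the other 6 neurons 0. It was thus under the detection limit in all 10 neurons, though the count of sample 8 exceeded the 0.00768 expected from the other libraries. It shares 118 exonic bases with the antisense gene Gm15688, which had 0 fragments in every neuron. No other member shares exonic bases with another gene.

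The ligands were at 1 FPKM or more in few neurons, each time on at least 209 fragments. Slit1 (chr19:41600257-41743665, minus strand) was at 17.8 FPKM in sample 8, on 2807 fragments, and at 1.37 FPKM in sample 7, on 209. Sample 6 had 0.236 FPKM on 44 fragments, against 0.326 fragments expected from other libraries, and the remaining neurons had at most 2 fragments. Sample 8 alone held 91.6% of the summed Slit1 FPKM, and Slit1 there stood at percentile 74.9 of the genes with a fragment. Slit2 (chr5:47983138-48307733, plus strand) was at 5.53 FPKM in sample 2, at 3.61 in sample 7 and, below the limit, at 0.789 in sample 6. It had 5101, 2360 and 632 fragments there. It was at 0.103, 0.0926 and 0.131 FPKM in samples 1, 9 and 10, and it had 8 fragments or fewer in samples 3, 4, 5 and 8. Slit2 was thus the ligand with a fragment in all 10 neurons. In samples 3, 4, 5 and 8, however, its 2, 4, 5 and 8 fragments compared with 1.21, 2.61, 3.30 and 7.36 expected. Slit3 (chr11:35121224-35708507, plus strand) was at 4.39 FPKM in sample 7 on 684 fragments, had 25 fragments in sample 9 and 1 in sample 4, and 0 in the other 7.

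Ntn1 (chr11:68209364-68400823, minus strand), which encodes netrin-1, was at 8.00 FPKM in sample 7 and at 9.95 FPKM in sample 10, on 1289 and 1906 fragments. The other 8 neurons had between 0 and 4 fragments. It was thus detected in 1 neuron of each line. The ligands were found in neurons with many and with few astrocyte markers: the astrocyte sum was 590 FPKM in sample 7, 654 in sample 10, 4091 in sample 8 and 6111 in sample 2, while sample 3, with the highest sum of 11360 FPKM, had none of the ligands at 1 FPKM. The 9 oligodendrocyte lineage markers summed to 31.4, 12.6, 120 and 205 FPKM in samples 7, 10, 8 and 2. Their sum was 338 FPKM in sample 3. The floor plate markers were at or near 0 in all of these neurons. The source of the ligand fragments was not tested.

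Counted per neuron, samples 1 to 10 had 2, 3, 0, 1, 2, 2, 6, 5, 3 and 2 of the 10 members at 1 FPKM or more. Sample 7, a Type-1 Dbx1;Ai148 neuron, had the most, with all 4 ligands beside Robo2 and Neo1. Sample 8, an Unknown CD-1 neuron, had 5: Robo1, Robo2, Dcc, Neo1 and Slit1. Samples 5 and 6, the other Type-1 Dbx1;Ai148 neurons, both had Robo2 and Neo1 and no other member. Sample 4, with microglia markers, had Neo1 at 1.13 FPKM, and sample 9, with motoneuron markers, had Robo2, Dcc and Neo1. The mean was 3 ± 2 members (SD, n = 4 neurons) in Dbx1;Ai148 and 2.33 ± 1.75 (SD, n = 6 neurons) in CD-1 neurons, a difference smaller than either SD.

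**Figure D2:**
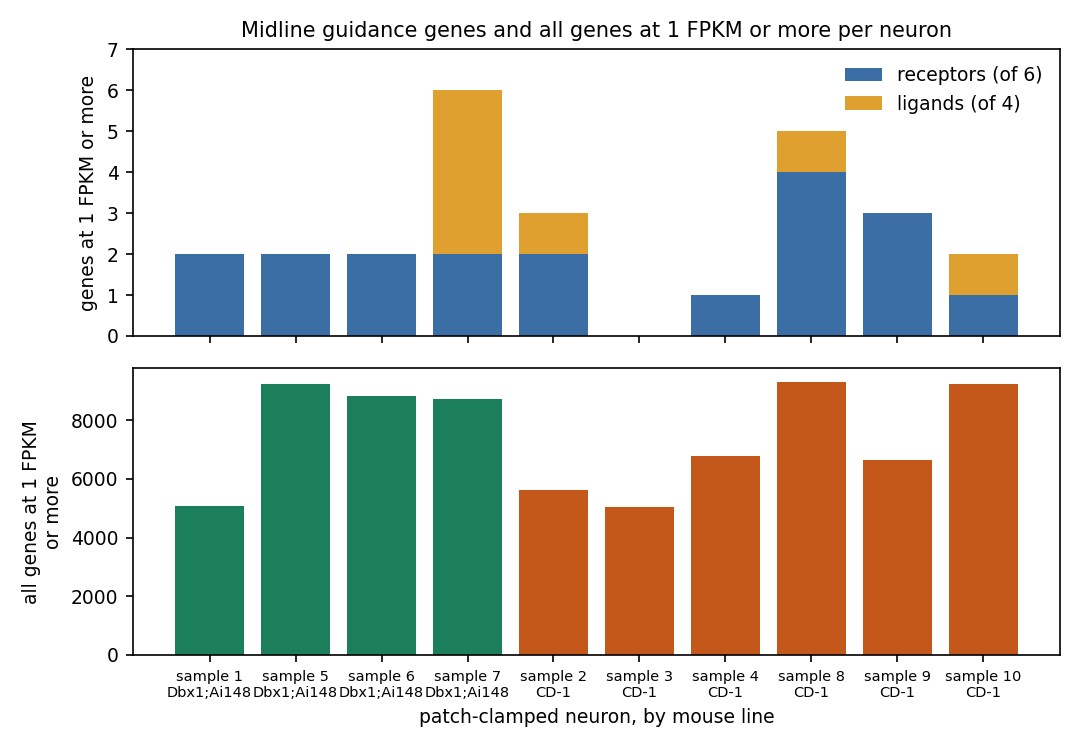
Bars give, for each neuron, the number of the 6 receptors and 4 ligands at 1 FPKM or more (upper panel) and the number of all genes at that level (lower panel, coloured by mouse line). Sample 3 has none of the 10 and the fewest genes, 5055, while samples 5, 6 and 7, with 9223, 8817 and 8720 genes, have 2, 2 and 6.

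Ligands and receptors of a pair occurred in the same neuron. Each of the 3 neurons with a Slit at 1 FPKM or more (samples 2, 7 and 8) also had Robo2, at 10.3, 5.79 and 18.2 FPKM, and samples 2 and 8 had Robo1 as well. Sample 10 had Ntn1 with Dcc at 3.35 FPKM, and sample 7 had Ntn1 with Neo1 at 12.2 FPKM and no Dcc fragment. With 7 of 10 neurons at 1 FPKM or more for Robo2, these are values of single neurons and no test of co-occurrence was made.

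Between the lines, the difference was taken as the mean of log2(FPKM + 1) over the 4 Dbx1;Ai148 neurons minus that over the 6 CD-1 neurons. Robo2 was higher by 1.18 on this scale (2.93 ± 0.74 against 1.75 ± 1.74, SD over neurons) and Neo1 by 1.03 (2.395 ± 1.73 against 1.37 ± 1.74). Dcc had a difference of -1.003, with 0 against 1.003 ± 1.20. For Robo2 and Neo1 the difference was smaller than the SD of the CD-1 neurons, and the same held for Dcc. The other 7 members had differences between -0.32 (Slit1) and 0.57 (Slit3), and that of Robo1 was -0.20. Because the scale adds 1 to each FPKM, it understates the change of low genes.

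Of the 10 members, 4 reached 1 FPKM in 3 neurons or more (Robo1, Robo2, Dcc and Neo1), the filter for this comparison, and 10420 of all genes were. Robo2 and Neo1 were higher in Dbx1;Ai148 neurons by 1 or more, as were 28.7% of the genes that passed the filter, and Dcc was lower by 1 or more, as were 17.1%. The median difference was 0.41 over these 4 members and 0.26 over all 10420 genes. No member had groups that did not overlap, where 1.36% of the genes had every Dbx1;Ai148 neuron above every CD-1 neuron and 1.16% the reverse. With background shares of this size, 2 and 1 of 4 genes are not a result about the members.

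**Figure D3:**
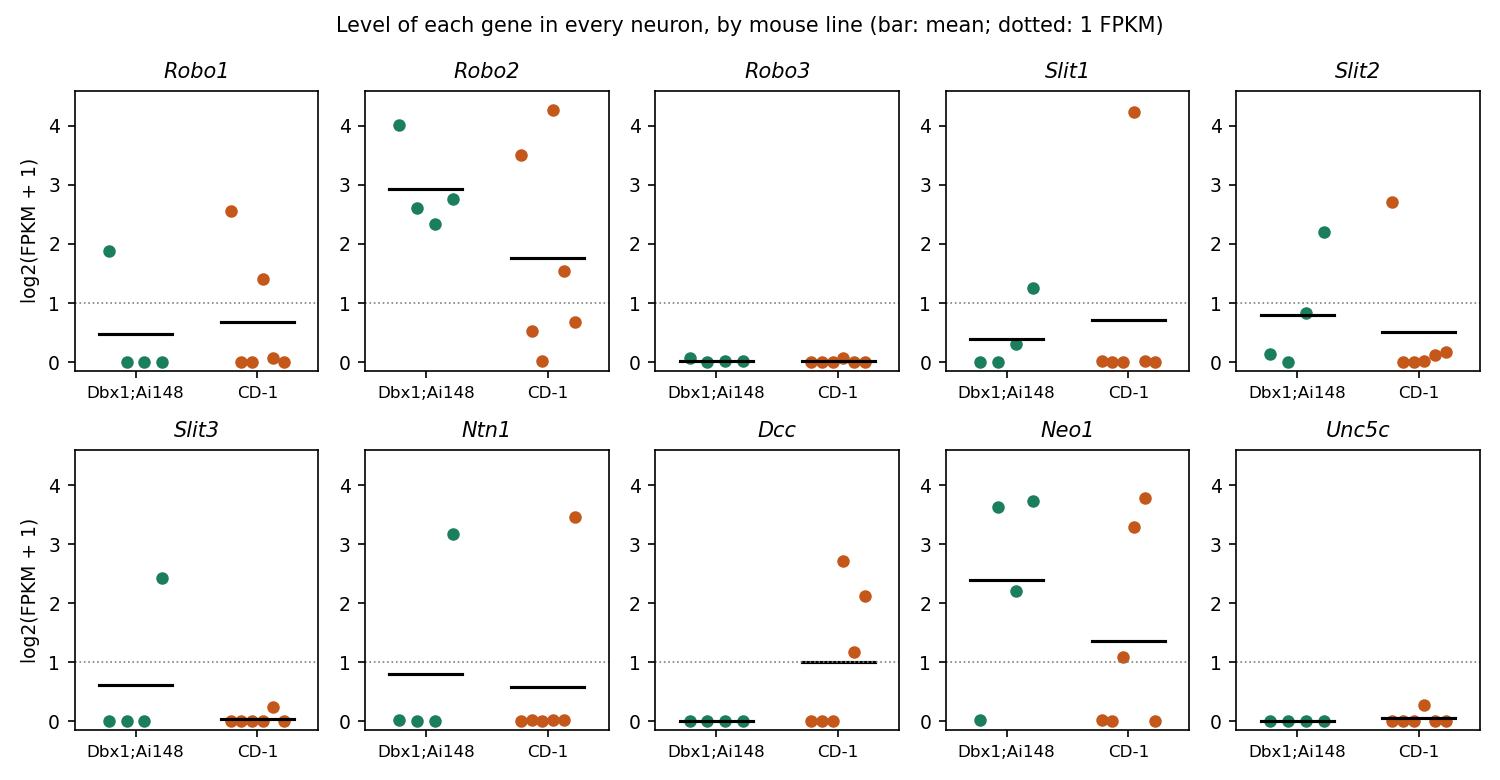
Each point is 1 neuron, at log2(FPKM + 1) of the gene named above the panel, for 4 Dbx1;Ai148 and 6 CD-1 neurons. The bar is the mean and the dotted line is 1 FPKM. The 4 Robo2 values of Dbx1;Ai148 neurons lie inside the range of the CD-1 neurons, and the 4 Dcc values lie at 0 with 2 CD-1 neurons.

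These line differences turned on single libraries. With sample 3, 4 or 10 left out, 0 members were higher by 1, and with sample 8, 9 or 10 left out, 0 were lower, with Dcc at -0.66, -0.97 and -0.78 and detected in 2 neurons, too few for the filter. Leaving out samples 1 to 4, whose low-expressed genes are set apart by the study, Robo2 differed by 0.41 and neither Robo2 nor Neo1 was higher by 1. Dcc then separated the lines, with 0 fragments in samples 5, 6 and 7 and at least 1.25 FPKM in samples 8, 9 and 10, as did 4.47% of the 9091 genes then tested in that direction. Leaving out samples 4 and 9, a choice made after their values were seen, 1 member, Neo1, was higher by 1.57, and Dcc differed by -1.21 but did not pass the filter, with 2 neurons left. With the all-gene scaling of TMM in place of total counts, Robo2 alone was higher by 1 or more, at 1.07, and Dcc was at -0.90, while the median of all genes moved to 0.11.

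Low values were set against the fragments expected from the other libraries. This expectation came from genes nearly private to 1 neuron, 47 to 188 per library, whose fragments turned up in other libraries at rates between 0% and 0.158% (median 0.0116% over pairs). For the 26 values at 1 FPKM or more, at least 209 fragments were counted and at most 12.0 were expected. Of the 35 values above 0 but under 1 FPKM, 17 had 3 fragments or fewer. A further 13 had more than 3 fragments and more than 3 times the number expected, among them Robo2 in samples 3 and 10, Slit2 in samples 6 and 10, Slit1 in sample 6, Unc5c in sample 8 and Robo3 in samples 1 and 8.

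**Figure D4:**
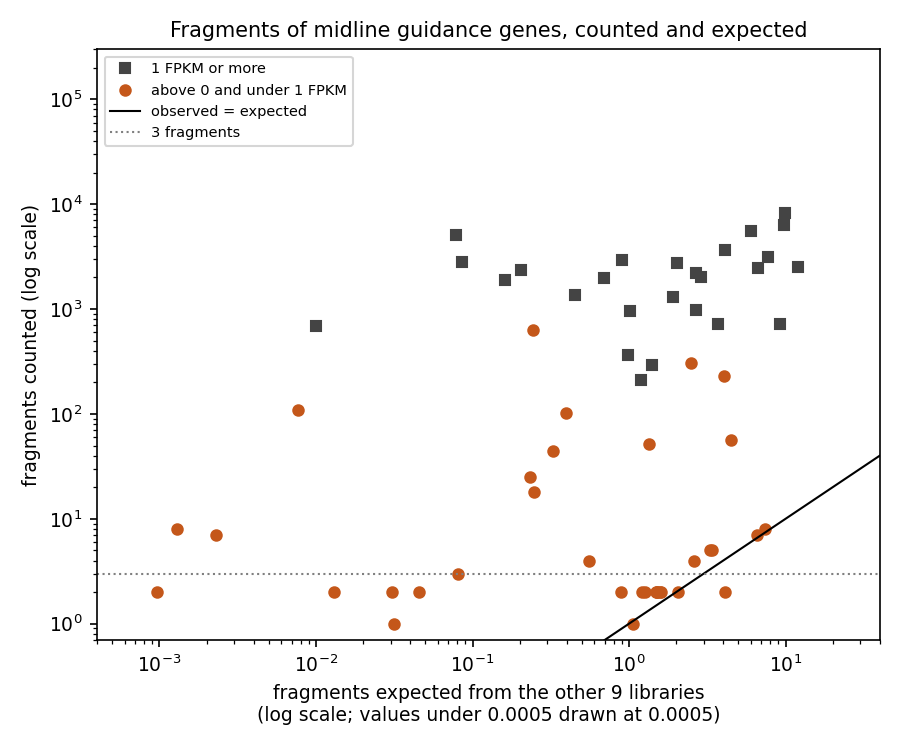
Fragments counted for each member and neuron with at least 1 fragment (vertical, log scale) against those expected from the other 9 libraries (horizontal, log scale). Squares are values at 1 FPKM or more, none under 209 fragments, and circles are the 35 lower values, some of which lie at the line of equality.

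Several members span genes or features of their own in introns. Gm42537, inside Slit2 and on its strand, had 1041 fragments in sample 6, where Slit2 itself had 632, and at most 1 in the other neurons. Gm42534, also inside Slit2, had 54 in sample 7 and 0 elsewhere. Gm49659, inside Robo2 and on its strand, had 828 fragments in sample 1 and 133 in sample 6. None shares exonic bases with its host, and these intronic counts were not part of the members' values.

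The genes most like each member were sought by Pearson r of log2(FPKM + 1) over the 10 neurons, among the genes that passed the filter. For Robo2 they were Trit1 (r = 0.92), Nrcam (0.90) and Adgrb3 (0.89), with Spearman rho of 0.93, 0.89 and 0.89. Nrcam encodes a cell adhesion molecule of axons. For Robo1 they were Mfsd3 (r = 0.99), Hsf2 (0.94) and Tcf4 (0.91). For Dcc they were Rhobtb2 (r = 0.98), Sbno2 (0.94) and Zfp952 (0.90). For Neo1 they were Mfap3, Alg14 and Ccng1, each with r = 0.96. Each list is the top of 10419 genes over 10 points that share a library with the member, so it describes these neurons only.

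The wider guidance genes were read from lists of 81 genes. Of these, 36 (44.4%) were detected in at least 5 neurons, 14 in at least 8, and 14 in none. Of the 48 that passed the filter, 23 were higher in Dbx1;Ai148 neurons by 1 or more and 1, Sema3c, was lower (47.9% and 2.08%, beside 28.7% and 17.1% of all genes that passed), with a median difference of 0.95 beside the 0.26 of all genes. The groups did not overlap for 4 of the 81 genes, all higher in Dbx1;Ai148 neurons, as for 0.829% of all genes with a fragment. Of these, Clstn1 and Arhgap39 passed the filter, where the share of all genes was 1.36%, and Plxna2 and Efnb3 did not. The lowest Dbx1;Ai148 value of Efnb3 was 0.0147 FPKM in sample 1, against 0.0142 FPKM in CD-1 sample 9. For Plxna2 it was 0.0318 FPKM in sample 5, against 0.0138 FPKM in CD-1 sample 4. Both separations thus rested on values far below 1 FPKM. Clstn1, which is known to carry Robo1 to the growth cone, was at 43.8 FPKM or more in the Dbx1;Ai148 neurons and at most 39.4 in the CD-1 neurons, and Arhgap39, a GTPase-activating protein downstream of Robo, at 5.99 or more against at most 1.06. The same lines differed in microglia and astrocyte markers in the other direction. Of the microglia markers, 7 of 7 that passed the filter were lower in Dbx1;Ai148 neurons by 1 or more (median difference -3.59). Of the astrocyte markers 7 of 8 were lower (median -1.73), and of the oligodendrocyte lineage markers 1 of 3 (median -0.85). Of the neuron markers, 3 of 8 were higher and 1 was lower (median 0.84). The part of these differences in the list counts was not tested. Of samples 1 to 4, which the study sets apart, sample 1 is Dbx1;Ai148 and the others are CD-1. Unlike those of the members, the list counts were not repeated without samples 1 to 4 or with other scaling. They are thus no result about the lines.

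**Figure D5:**
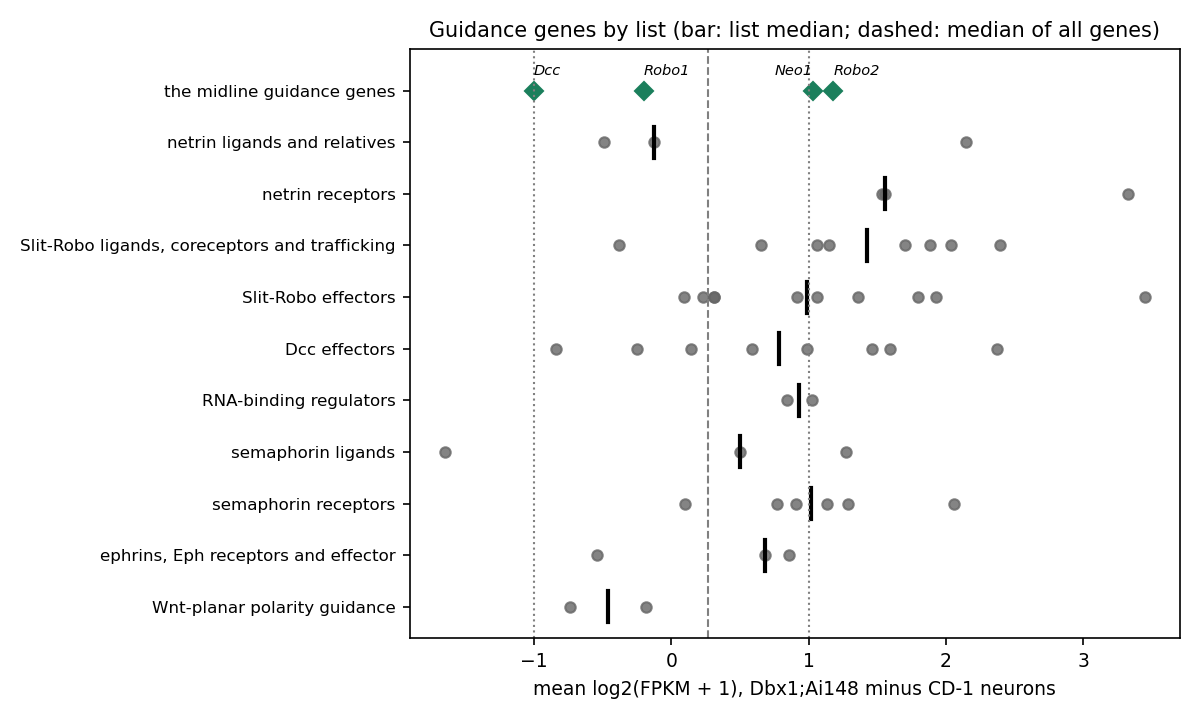
Each point is 1 gene that passed the filter, at its mean log2(FPKM + 1) in Dbx1;Ai148 minus CD-1 neurons, by list. Bars are list medians, the dashed line is the median of all 10420 genes at 0.26, and dotted lines mark -1 and 1. The 4 midline guidance genes lie between -1.003 and 1.18.

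The counts of each list are read beside the 28.7% of all genes that were higher, and lists of 2 or 3 tested genes are too short to be set against it. Of 12 Slit and Robo coreceptors, other ligands and trafficking genes, 8 were detected in at least 5 neurons and 6 of the 8 that passed the filter were higher in Dbx1;Ai148 neurons. Ndfip1 and Ndfip2, adaptors that lower Robo protein, were detected in all 10 neurons, at 141 ± 87.7 and 17.8 ± 7.61 FPKM (SD, n = 10 neurons). Usp33, a deubiquitinating enzyme that binds Robo1, was at 9.24 FPKM or more in 8 neurons and at 0.0398 and 0.0140 FPKM in samples 3 and 4. Of the 11 effectors of Slit and Robo signalling, 5 of the 10 that passed were higher. Srgap2 was detected in 9 neurons and Pak1, Sos1 and Enah in 8 each.

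For the netrin side, all 3 further receptors that passed the filter (Dscam, Unc5a and Unc5d) were higher in Dbx1;Ai148 neurons, and Unc5b was never detected. Dscam, a netrin receptor of the immunoglobulin family, was highest in samples 5, 6 and 7, at 39.5, 37.1 and 15.6 FPKM, stood at 2.08 FPKM in sample 1, and at most 6.41 FPKM in the CD-1 neurons. Unc5a was at 21.7 and 14.3 FPKM in samples 5 and 6 and at 9.54 FPKM in sample 10. Of the 8 further netrin ligands and relatives, 3 passed, of which Ntn4 was higher, and Rgmb, a ligand of Neo1, had the highest mean, 6.97 ± 8.84 FPKM (SD, n = 10 neurons). Of 9 Dcc effectors, 3 of the 8 that passed were higher. Cdc42 and Rac1, small GTPases, were detected in all 10 neurons, at 283 ± 86.4 and 84.9 ± 42.3 FPKM. Fyn was detected in 9 neurons and Wasl in 8.

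Nova1, an RNA-binding protein that regulates splicing of Dcc, was detected in 9 neurons and was the 1 of 2 tested regulators that was higher. In the Sonic hedgehog list none of 5 genes passed the filter, and Boc, Cdon and Ptch1 were never detected, while Smo was at 30.1 FPKM in sample 3. Of the semaphorin receptors 3 of 6 tested were higher, with L1cam, an adhesion molecule that acts as a coreceptor, detected in 9 neurons. Sema3c was at 12.2, 13.9 and 5.30 FPKM in samples 8, 9 and 10, the neurons with Dcc, and at most 0.206 FPKM in the others. This match with Dcc was picked after the values were seen and was not tested, and Sema3c was not among the genes most like Dcc. In the list of ephrins, Eph receptors and their effector Chn1, none of the 3 tested genes, Chn1 among them, passed a difference of 1. No ephrin was among those tested. No Wnt-polarity gene of the 2 tested passed it either. Chn1 and Ryk had the highest mean FPKM of these lists.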

How the data were processed

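Single-cell RNA-seq libraries of 10 preBötC neurons were analysed. The authors trimmed paired-end reads, aligned them with STAR 2.7.7a to GRCm38 (mm10) and counted fragments per gene with featureCounts; read quality was checked with FastQC 0.11.8, per the labels. The authors deposited raw fragment counts, and FPKM values, which scale each count to the gene's length in kilobases and to 1e+06 fragments on genes. Options for fragments that match several places are not given in the sources used here. Merging all exons of a gene gives a long length and a low FPKM for genes with long rare exons, and the deposited length equals the merged exon length of GENCODE M21 for all 10 members.

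Values were used as deposited. Groups came from the sample labels, and 0 columns were left without a sample. Detection was set at 1 FPKM, the pseudocount at 1 and the difference of interest at 1 on the log2 scale, over genes detected in at least 3 neurons. No test was made, because each sample is 1 neuron and no animal is named. Reads from other libraries were estimated on genes with at least 1000 fragments in 1 neuron and no more than 2% of them in another, with a trim of 5%. All 10 members were named, with the 3 genes most like each member detected in at least 3 neurons, the gene of highest mean FPKM per list, every list gene detected in at least 8 neurons, and markers where a library stands apart. Arhgap39, Clstn1, Plxna2, Efnb3, Unc5a, Unc5b, Unc5d, Ntn4, Boc, Cdon, Ptch1 and the intronic genes were named after their values were seen. The members and lists were chosen with earlier results of these data known. The scripts were tested on simulated data and ran in Python 3.11.15 with pandas 2.3.3, NumPy 2.4.6, Matplotlib 3.10.9 and SciPy 1.17.1, and, for scaling factors, R 4.3.3 with edgeR 4.0.16 and DESeq2 1.42.0. Alternatives were other pseudocounts, medians, TPM, TMM and median-of-ratios scaling, removal of low or expected counts, thinning, other detection limits and left-out neurons.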

Additional observations from a re-analysis of the deposited data

Results flagged for a closer look

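Within each mouse line, the gap between the highest neuron and the next was set against the whole range by Dixon's criterion, on log2(FPKM + 1), for the 14 combinations of member and line with a neuron at 1 FPKM or more. In 6 of them 1 neuron stood apart, where chance gives about 1 in 20 for values not chosen by level. These combinations were kept because a neuron reached 1 FPKM, often with the others near 0, so the number of them cannot be read against that share. Robo1 was at 2.68 FPKM in sample 1, the Type-2 neuron, apart from the other Dbx1;Ai148 neurons. Sample 7 stood apart in the same line for Slit3 at 4.39 FPKM and for Ntn1 at 8 FPKM. Among CD-1 neurons, sample 8 stood apart for Slit1 at 17.8 FPKM, sample 2 for Slit2 at 5.53 FPKM and sample 10 for Ntn1 at 9.95 FPKM. The ligands make up 5 of these 6 values, which in part restates that each ligand was detected in at most 1 neuron of a line.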

How the results depend on the processing

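The 2 members detected in at least 5 neurons became 1 (Robo2) with a limit of 5 FPKM. The 2 members higher in Dbx1;Ai148 neurons became 1 with TMM factors, 1 with median-of-ratios size factors, 1 without samples 4 and 9, and 0 without samples 1 to 4. Leaving out each neuron in turn gave 0 to 2, with 0 without sample 3, 4 or 10 and 1 without sample 1, 2, 5 or 7. The 1 lower member, Dcc, at -1.003, lay at the limit, and the count became 0 with medians over neurons, with TMM factors, with median-of-ratios size factors and without samples 4 and 9. Without each neuron in turn it ran from 0 to 1, with 0 without sample 8, 9 or 10, where Dcc was at -0.66, -0.97 and -0.78 and was left with 2 neurons at 1 FPKM, too few for the filter. Without samples 4 and 9 it was at -1.21, and the filter alone removed it. The 0 members without overlap became 1, Dcc, without samples 1 to 4. Of 200 alternative values for the members' differences, 194 moved by less than 1 SD over neurons, 6 moved more, and 0 reversed a difference of 1 or more. The difference of Robo2 ran from 0.41 without samples 1 to 4 to 2.06 with a pseudocount of 0.1, that of Neo1 from 0.59 without sample 7 to 2.36 with medians, and that of Dcc from -2.46 with a pseudocount of 0.1 to -0.59 with medians. The cause of the other shifts was not tested. The median of all genes was 0.26 with totals, 0.11 with TMM, 0.09 with median-of-ratios and 0.64 with TPM, where 40.9% of genes were higher and 14.7% lower. Over every gene with a fragment the shares were 17.5% and 10.2%. No paired analysis was possible because no comparison was tested and no animal or pairing is named. With 4 and 6 neurons of mixed age and type, neither presence in 1 neuron nor a line difference can be extended beyond these libraries, and values under about 10 fragments cannot be told from reads of other libraries where as many are expected.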

Other observations

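The transmitter genes of the neurons stood beside the members as follows, as values of single neurons chosen after they were seen and not tested. Samples 5, 6, 7 and 8, each with the vesicular glutamate transporter Slc17a6 at 101 FPKM or more, had Robo2 at 5.07, 4.09, 5.79 and 18.2 FPKM and Neo1 at 11.4, 3.60, 12.2 and 8.76 FPKM. Samples 1, 3 and 10, each with the GABA-synthesizing enzyme gene Gad1 at 37 FPKM or more, had Neo1 at 0.0107, 0.00737 and 0 FPKM and Robo2 at 15.2, 0.437 and 0.592 FPKM. These neurons were grouped by high Slc17a6 and Gad1 alone. Sample 8 also had Gad1 at 8.28 FPKM, and sample 7 had Gad2 at 5.14 FPKM. Sample 4 had Gad2 at 2.53 FPKM with Neo1 at 1.13 FPKM. Sample 2 had Slc32a1 at 5.95 and Slc17a6 at 1.85 FPKM, with Neo1 at 0.0158 FPKM. Sample 9, with motoneuron markers, had the highest Neo1, 12.8 FPKM. The labels give no transmitter type.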
